A study of Homo sapiens with 4 samples.

Results

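The genes described here encode the enzymes that start mitosis. They are the phosphatases CDC25A, CDC25B and CDC25C, the cyclins CCNB1 and CCNB2 with their kinase CDK1, the inhibitory kinase WEE1, and the mitotic kinases PLK1, AURKA and AURKB. These 10 genes were set by name, out of 20056 protein-coding genes. They were chosen by their function, with the deposited ChIP and input concentrations, folds and FDR values of this same table already known. Every BRCA2 site that the authors paired with one of them was taken, which gave 8 sites, of 15131 in the authors' deposited table, at 7 of the 10 genes. CCNB1, CCNB2 and PLK1 had none.

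BRCA2 acts in the repair of broken DNA by homologous recombination. Its chromatin sites were mapped by immunoprecipitation and sequencing (ChIP-seq) in hTert-HME1, a human mammary epithelial line immortalized with telomerase. Dividing cells in log-phase growth were fixed in 1% formaldehyde for 10 minutes, and 2 libraries made with an antibody to BRCA2 were compared with 2 libraries of input chromatin, the sonicated DNA before precipitation. No treatment is named for either group, and no control antibody was analysed here, so pull-down without BRCA2 cannot be told apart from BRCA2 binding. A mean concentration is the authors' log2 of normalized reads over the libraries of a group. Log2 fold means the difference between these concentrations, ChIP less input, and FDR the false discovery rate of that difference. All of these are taken as the authors' deposited table gives them. The table has no value per library, so depth and the spread between replicates are unknown. It has no expression values either, so the line was not checked against marker genes. Dividing cells pass through all phases of the cycle, so a site bound in few cells cannot be told apart from a weakly bound site in many.

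Entry into mitosis is set by the complex of cyclin B and CDK1. WEE1 holds that complex inactive by phosphorylating CDK1, and the CDC25 phosphatases remove the phosphate. Aurora A activates PLK1, PLK1 acts on CDC25 and WEE1, and Aurora B corrects the attachment of chromosomes to the spindle. Many of these genes are transcribed late in the cycle through CCAAT boxes, bound by NF-Y, and through the CHR (cell cycle genes homology region), bound by the LIN54 subunit of the MuvB complex. BRCA2 protein is itself a substrate of CDK1 and PLK1.

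The members fell into 3 levels. CDC25C held a site of extreme height, CDC25B and WEE1 held sites of moderate enrichment, and CDC25A, AURKA, AURKB and CDK1 held weak sites over their starts. By the authors' deposited table, the strongest log2 folds were 6.38 at CDC25C, 1.96 at CDC25B, 1.45 at WEE1, 0.94 at CDC25A, 0.90 at AURKA, 0.88 at AURKB and 0.72 at CDK1. The median over the 7 genes was 0.94, and it was 1.31 over the 8855 protein-coding genes with a site. Of the 8 sites, 5 lay below the median log2 fold of all sites, 1.15. Among protein-coding genes, 44.2% had a site above input, and 7 of these 10 had one (70.0%). A site at the start was held by 23.4% of protein-coding genes and by 6 of the 10. This means a site over the listed start, or one with a listed distance of at most 1 kb from it. The listed distance runs to the edge of the site with the lower coordinate, which is not always the nearer edge. Since the genes were chosen with these values known, the counts are a description and carry no test.

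**Figure D1:**
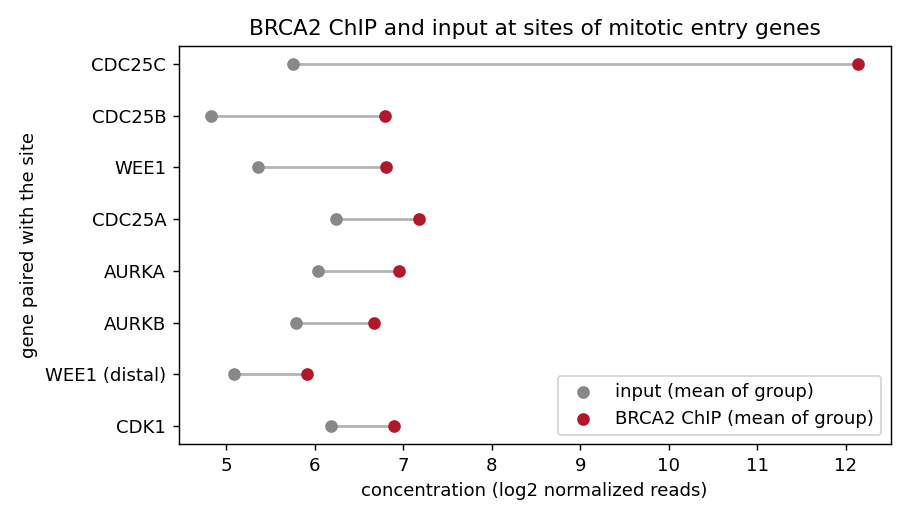
Mean concentration (log2 normalized reads, horizontal axis) of BRCA2 ChIP (red) and of input (grey) at the 8 sites, 1 line per site, ordered by log2 fold. Input lies between 4.83 and 6.24 at all sites, while ChIP is at 12.14 at CDC25C and between 5.91 and 7.18 at the others.

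CDC25C, a phosphatase that activates cyclin B and CDK1 at the onset of mitosis, had the highest ChIP concentration of the whole table. The site ran from 137673470 to 137673969 on chromosome 5 (hg19), with concentrations of 12.14 in ChIP and 5.75 in input. In linear terms these were 4510 and 53.8 normalized reads, an 83.3-fold enrichment. The deposited log2 fold of 6.38 held rank 7 of 15131 sites and the FDR of 1.3e-90 rank 62. Input was 0.37 above the median of the 784 sites on chromosome 5. The next highest ChIP concentrations in the authors' deposited table were 12.11 at MGEA5, 12.04 at PRKCI and 12.02 at BCCIP, so the CDC25C site stood at the end of a continuous series and not apart from it. Those 3 sites had smaller FDR values, between 4.07e-227 and 8e-204. Of them, the MGEA5 site is also paired with KCNIP2-AS1, and the BCCIP site with UROS.

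The site is also paired with FAM53C, on the opposite strand, and the annotation decides which gene start it is nearest to. In the authors' deposited table it lay inside both genes, from 75 to 574 bp into CDC25C and from 5846 to 6345 bp into FAM53C. In RefSeq on GRCh38.p14, the promoter table gives a FAM53C start only 89 bp inside CDC25C, counted from the outermost CDC25C start, and the outermost FAM53C start lies 798 bp inside. The CDC25C starts listed there lie 0, 14, 6478 and 6551 bp from the outermost one. If the outermost CDC25C starts of both annotations coincide, which was not checked, the site covers the FAM53C start at 89 bp, shares 265 bp with the 300 bp window around it, and lies over 5 kb upstream of the inner CDC25C starts. Which of these starts is used in hTert-HME1 cells was not measured here.

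The RefSeq windows from 250 bases before to 50 bases after a start are shown for these starts, since the assignment of the strongest site rests on them. Capitals mark the CHR letters TTTGAA or TTTAAA and the CCAAT box on either strand (TTCAAA and ATTGG on the opposite strand). Neither the outermost CDC25C window nor the FAM53C window held a match. The inner CDC25C window held TTTGAA from 30 to 25 bases before the start and a reversed CCAAT box from 85 to 81 bases before it.
CDC25C, outermost start, chr5:138338306-138338605 (minus strand): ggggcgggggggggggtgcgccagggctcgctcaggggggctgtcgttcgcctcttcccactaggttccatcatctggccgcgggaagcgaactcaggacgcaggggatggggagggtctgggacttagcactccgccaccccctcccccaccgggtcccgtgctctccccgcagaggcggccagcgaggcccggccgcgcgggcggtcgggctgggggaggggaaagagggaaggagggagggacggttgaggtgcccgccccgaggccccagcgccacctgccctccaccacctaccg
FAM53C, start 89 bp inside CDC25C, chr5:138338016-138338315 (plus strand): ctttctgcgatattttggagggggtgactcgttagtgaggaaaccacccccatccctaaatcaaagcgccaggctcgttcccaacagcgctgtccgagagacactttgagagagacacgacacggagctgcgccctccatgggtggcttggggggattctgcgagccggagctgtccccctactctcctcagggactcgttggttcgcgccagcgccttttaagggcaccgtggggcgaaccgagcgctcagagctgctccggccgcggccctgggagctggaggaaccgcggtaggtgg
CDC25C, innermost start, chr5:138331755-138332054 (minus strand): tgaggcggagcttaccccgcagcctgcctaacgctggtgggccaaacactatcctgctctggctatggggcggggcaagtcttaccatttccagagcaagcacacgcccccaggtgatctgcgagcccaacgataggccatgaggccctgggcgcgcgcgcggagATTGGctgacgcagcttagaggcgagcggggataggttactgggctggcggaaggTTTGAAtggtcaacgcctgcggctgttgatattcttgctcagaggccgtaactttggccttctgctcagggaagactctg

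CDC25B, the phosphatase linked to the first activation of cyclin B and CDK1 at the centrosome, had the second strongest site of the group. By the authors' deposited table its ChIP concentration was 6.79 and its input 4.83, a log2 fold of 1.96 (3.89-fold) with an FDR of 7.52e-08, at 3776409 to 3776908 on chromosome 20. Here the input was low, 0.60 under the median of the 477 sites on that chromosome, and only 12.8% of all sites had a lower one. ChIP was not high, with a rank of 5204. The site lay 8831 to 9330 bp inside the gene by the listed start, so it was not counted as a start site. RefSeq on GRCh38.p14 lists CDC25B starts 8838, 9359 and 13097 bp inside the outermost one. The position of the site in the gene is therefore within the range of an alternative start, if the outermost starts of the 2 annotations coincide, which was not checked. The window at 8838 bp is shown for that reason. It held a reversed CCAAT box from 169 to 165 bases before that start and no CHR letters. The window at 9359 bp, which is not shown, held a reversed CCAAT box from 73 to 69 bases before its start and no CHR letters. On the same condition, the first box lies before the site and the second within it.
CDC25B, start 8838 bp inside the gene, chr20:3795539-3795838 (plus strand): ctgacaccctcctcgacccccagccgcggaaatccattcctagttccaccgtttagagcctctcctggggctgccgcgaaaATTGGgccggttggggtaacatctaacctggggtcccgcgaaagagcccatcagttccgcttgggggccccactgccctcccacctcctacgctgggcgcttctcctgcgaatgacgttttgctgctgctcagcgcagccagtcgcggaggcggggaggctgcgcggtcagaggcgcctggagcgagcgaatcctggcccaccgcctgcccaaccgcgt

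CDC25A, the phosphatase that also drives entry into S phase, had a wide and weak site across its start. It measured 886 bp, where 14961 of the 15131 sites measured 500 bp, and ran from 618 bp before the start to 267 bp inside the gene, at 48229625 to 48230510 on chromosome 3. ChIP was 7.18 and input 6.24 in the authors' deposited table, which is a log2 fold of 0.94 at an FDR of 0.00179. The ChIP concentration was higher than at 84.2% of all sites, and the input higher than at 97.1%. Neither concentration was adjusted here for the width of the site. These ranks therefore cannot tell a high level from reads gathered over a wider site. The part of the width and of the input in the result was not tested. The window around the CDC25A start, which the site covers if the starts of both annotations coincide, held a reversed CCAAT box at 110 and at 58 bases before the start and the E2F letters TTTGGCGC from 44 to 37 bases before it, but no CHR letters.
CDC25A, chr3:48188368-48188667 (minus strand): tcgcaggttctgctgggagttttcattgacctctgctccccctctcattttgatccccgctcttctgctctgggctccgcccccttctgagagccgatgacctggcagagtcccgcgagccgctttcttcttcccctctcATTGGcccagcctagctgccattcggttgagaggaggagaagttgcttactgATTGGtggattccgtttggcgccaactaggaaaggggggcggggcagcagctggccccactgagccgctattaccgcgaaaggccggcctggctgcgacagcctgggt

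**Figure D2:**
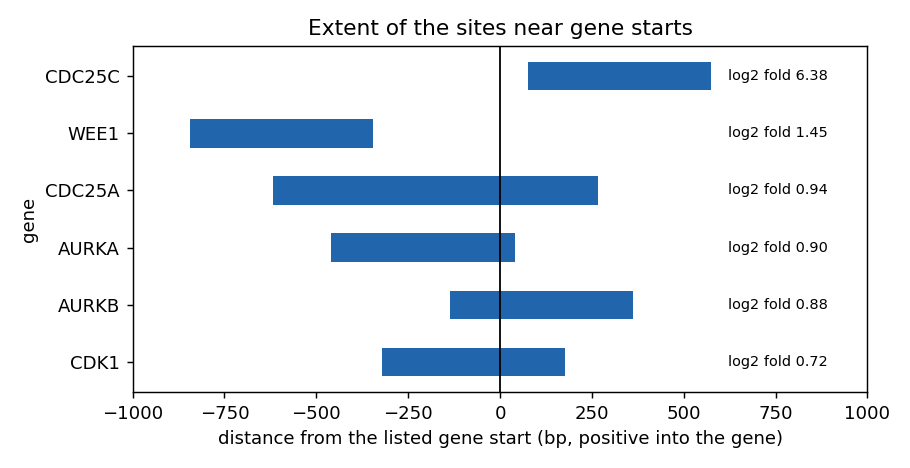
Extent of the 6 sites counted at gene starts, as distance from the listed gene start in bp (horizontal axis, positive into the gene), with the log2 fold of each. Sites of CDC25A, AURKA, AURKB and CDK1 cross the start, that of WEE1 lies wholly before it and that of CDC25C wholly inside the gene.

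CDK1, the kinase at the centre of mitotic entry, had the weakest site of the group. The authors' deposited table gave a ChIP concentration of 6.90, an input of 6.18 and a log2 fold of 0.72 (1.65-fold) at an FDR of 0.0251, at 62537767 to 62538266 on chromosome 10, from 322 bp before the start to 177 bp inside. Of all sites 3.24% had a lower log2 fold, and 96.1% a lower input. Sites on chromosome 10 had a raised input, with a median of 5.91 over 876 sites against 5.42 over all sites, and CDK1 was 0.27 above that median. The part of this input in the CDK1 value was not tested. The CDK1 window around the outermost RefSeq start held TTTGAA and TTTAAA 161 and 131 bases before the start, a CCAAT box at 150 bases before it, and the E2F letters TTTCGCGC 19 bases after it. A second RefSeq start, 147 bp further in, held 3 CHR matches and 2 CCAAT boxes in its window.
CDK1, outermost start, chr10:60778081-60778380 (plus strand): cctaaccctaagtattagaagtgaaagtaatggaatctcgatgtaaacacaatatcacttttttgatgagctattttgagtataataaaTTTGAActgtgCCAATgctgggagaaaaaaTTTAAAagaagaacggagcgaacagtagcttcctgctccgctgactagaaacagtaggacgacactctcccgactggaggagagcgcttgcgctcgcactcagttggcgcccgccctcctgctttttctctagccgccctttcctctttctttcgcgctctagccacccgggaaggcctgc

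The cyclins that activate CDK1 had no site at all. CCNB1, on chromosome 5, and CCNB2, on chromosome 15, are absent from the authors' deposited table, as is PLK1, on chromosome 16. A gene without a site here is one with no position up to an FDR of 0.05, which does not show that BRCA2 was absent. Of the 3 nearest coding genes on each side, by their order in RefSeq, 3 of 6 had a site for CCNB1, 4 of 6 for CCNB2 and 1 of 6 for PLK1. Over all protein-coding genes the share with a site was 44.2%, and these small counts were not tested against it or each other. CENPH, a kinetochore gene next to CCNB1, had 0.96 (log2 fold) over its start, and RNF111, next to CCNB2, 1.40 at a site 62 bp before the start of SLTM. Both neighbours of PLK1, DCTN5 and ERN2, had none, nor did PALB2, the gene of a direct partner of BRCA2, which is the next gene but one to PLK1.

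The windows of these 3 genes are shown because they carry the CHR and CCAAT letters close together. This is not particular to genes without a site. The window of the second CDK1 start held a reversed CCAAT box from 78 to 74 bases before the start and TTTGAA from 69 to 64 bases before it. The inner CDC25C windows also held both. CHR letters stood 30 to 25 bases before the start of CCNB1, and 29 to 24 bases before those of CCNB2 and PLK1. Further CHR letters stood 193 to 188 bases before the CCNB2 start, and 148 to 143 and 88 to 83 bases before the PLK1 start. CCAAT boxes stood at 87 and 55 bases before the CCNB1 start, at 244, 120, 87 and 54 bases before the CCNB2 start, and at 73 bases before the PLK1 start. Of the 22199 windows of coding genes in the RefSeq table, 20.2% held CHR letters, 34.7% a CCAAT box and 3.43% the E2F letters TTTGGCGC, TTTCGCGC or TTTCCCGC, on either strand. The CHR and E2F letters do not overlap a CCAAT box in any window shown. Windows for 8 of the 10 genes were in that table, and AURKA and WEE1 are named only. A match describes letters and not a bound site, and these windows were compared after the values of the genes were known.
CCNB1, chr5:69166900-69167199 (plus strand): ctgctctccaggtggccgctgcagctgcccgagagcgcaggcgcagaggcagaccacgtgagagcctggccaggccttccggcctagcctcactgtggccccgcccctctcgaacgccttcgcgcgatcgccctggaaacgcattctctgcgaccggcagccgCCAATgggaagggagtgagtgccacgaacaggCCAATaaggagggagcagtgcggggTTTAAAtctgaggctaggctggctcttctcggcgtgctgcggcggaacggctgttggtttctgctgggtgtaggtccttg
CCNB2, chr15:59104896-59105195 (plus strand): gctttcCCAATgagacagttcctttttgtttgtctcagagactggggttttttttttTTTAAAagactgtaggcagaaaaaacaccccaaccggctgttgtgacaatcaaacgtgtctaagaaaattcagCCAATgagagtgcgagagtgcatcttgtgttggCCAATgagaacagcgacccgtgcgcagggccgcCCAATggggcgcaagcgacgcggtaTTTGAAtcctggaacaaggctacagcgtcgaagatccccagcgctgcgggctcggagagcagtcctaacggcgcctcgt
PLK1, chr16:23678639-23678938 (plus strand): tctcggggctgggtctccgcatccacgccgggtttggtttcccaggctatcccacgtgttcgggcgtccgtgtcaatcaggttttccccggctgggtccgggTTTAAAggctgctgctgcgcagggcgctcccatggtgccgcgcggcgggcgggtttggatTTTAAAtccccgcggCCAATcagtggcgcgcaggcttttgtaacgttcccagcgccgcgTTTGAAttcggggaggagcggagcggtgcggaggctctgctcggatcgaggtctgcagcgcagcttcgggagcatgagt

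WEE1, the kinase that keeps CDK1 inactive until DNA is replicated and intact, was the only one of the 10 genes with 2 sites. The nearer ran from 844 to 345 bp before its start, at 9594384 to 9594883 on chromosome 11, with a ChIP concentration of 6.81 and an input of 5.36. By the authors' deposited table its log2 fold was 1.45 (2.73-fold) and its FDR 0.000305, and 64.8% of the 5042 start sites had a lower fold. Its input was within 0.08 of the median of its chromosome. The other site lay 38546 to 38047 bp before the start, with 5.91 and 5.09, a deposited log2 fold of 0.82 at an FDR of 0.0356, the largest FDR of the 8. Its ChIP concentration was among the lowest of the table, with 4.14% of sites lower. No other gene is paired with either site.

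AURKA, the centrosomal kinase that activates PLK1, had a site over its start, from 459 bp before to 40 bp inside, at 54967353 to 54967852 on chromosome 20. ChIP was 6.95 and input 6.04, and the authors' deposited table gave a fold of 0.90 (log2) at an FDR of 0.00486. The same site covers the start of CSTF1, a subunit of the cleavage stimulation factor of mRNA 3' ends, which begins 34 bp away on the opposite strand. Most of the site, from 74 bp before to 425 bp after the CSTF1 start, lies on the CSTF1 side, and the table cannot divide it between these genes. Input was higher than at 92.6% of all sites and 0.61 above the chromosome's median.

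AURKB, the kinase of the chromosomal passenger complex, had a site from 136 bp before its start to 363 bp inside, at 8113555 to 8114054 on chromosome 17. The authors' deposited table gave 6.67 in ChIP, 5.79 in input and a log2 fold of 0.88 at an FDR of 0.0116. Of start sites 13.3% had a lower fold, and 82.1% a lower input. The RefSeq windows of AURKB, at starts 326 and 350 bp inside the outermost one, held 1 reversed CCAAT box and no CHR letters.

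**Figure D3:**
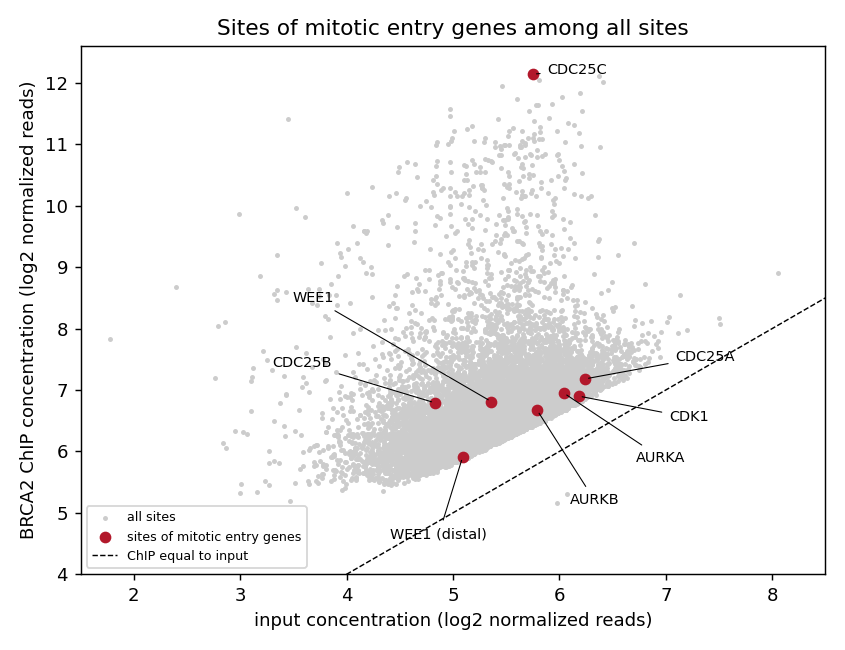
BRCA2 ChIP concentration (vertical axis) against input concentration (horizontal axis), both in log2 normalized reads, for all 15131 sites (grey) with the 8 sites of mitotic entry genes in red and a dashed line where ChIP equals input. CDC25C stands at the top edge at 12.14, while CDC25A, CDK1 and AURKA lie to the right with input between 6.04 and 6.24.

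The 4 sites that cross a listed start, those of CDC25A, AURKA, AURKB and CDK1, lay close together in both values. Their ChIP concentrations ran from 6.67 to 7.18 and their inputs from 5.79 to 6.24. Over all 3287 sites that cross a start, the median ChIP concentration in the authors' deposited table was 6.67 and the median input 5.41, with quartiles of 5.09 and 5.70. These 4 inputs lay above the upper quartile, and the 4 log2 folds, 0.72 to 0.94, lay below the lower quartile of 0.98. The CDC25A site was 886 bp wide, against 500 bp for those of AURKA, AURKB and CDK1. Concentrations were not adjusted for width here, so the place of CDC25A among these quartiles may reflect its width, which was not tested. How much these sites vary between libraries cannot be computed from group means, so their order among themselves, from 0.94 to 0.72, is given without a test.

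Stricter thresholds left fewer of the 10 genes, as they left fewer of all protein-coding genes. CDC25C, CDC25B and WEE1, 3 of 10, had a log2 fold of at least 1, where 34.7% of protein-coding genes had such a site. At a log2 fold of at least 2 only CDC25C remained, against 7.82% of protein-coding genes. An FDR under 0.001 was held by the same 3 genes as the fold of at least 1, against 26.0%, and an FDR under 0.01 by 5 of 10, adding CDC25A and AURKA, against 37.0%. Counted at the start only, 2 of the 10 had a log2 fold of at least 1 (17.8% of protein-coding genes), 1 of at least 2 (3.55%), 4 an FDR under 0.01 (19.4%) and 2 an FDR under 0.001 (13.1%). The window changed no count of the 10 genes: those of 3 kb and 5 kb or the shortest distance each gave 6 of 10 start sites, where the share of protein-coding genes was 27.1%, 29.1% and 24.4%. Leaving out sites over 5 kb from the gene left 7 of 10, against 41.3%.

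The wider mitotic entry network, 49 other genes in 9 roles, had a site at 33 genes (67.3%) and a site at the start at 21 (42.9%), beside the 44.2% and 23.4% of protein-coding genes. Their median strongest log2 fold was 1.20. The genes with the largest deposited values were LIN54, PLK2, CCNB3, GADD45A, TPX2 and SFN, the 6 with a log2 fold of at least 2. As a comparison, 23 G1 genes (cyclins D and E, CDK4 and CDK6, E2F and RB family genes and CDK inhibitors) had a site at 15 (65.2%), with a median of 1.29. They had a site at the start at 10, or at 12 when the shortest distance was used. Their largest folds were those of CCND3 at 4.12, E2F6 at 1.96 and CCNE2 at 1.82. Each of these sites is shared. The CCND3 site ends 41 bp before the CCND3 start and crosses the start of TAF8. The E2F6 site also overlaps the end of AC099344.1, and the CCNE2 site also lies inside NDUFAF6. The 10 mitotic entry genes, at 7 of 10 and a median of 0.94, were not tested against either list.

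**Figure D4:**
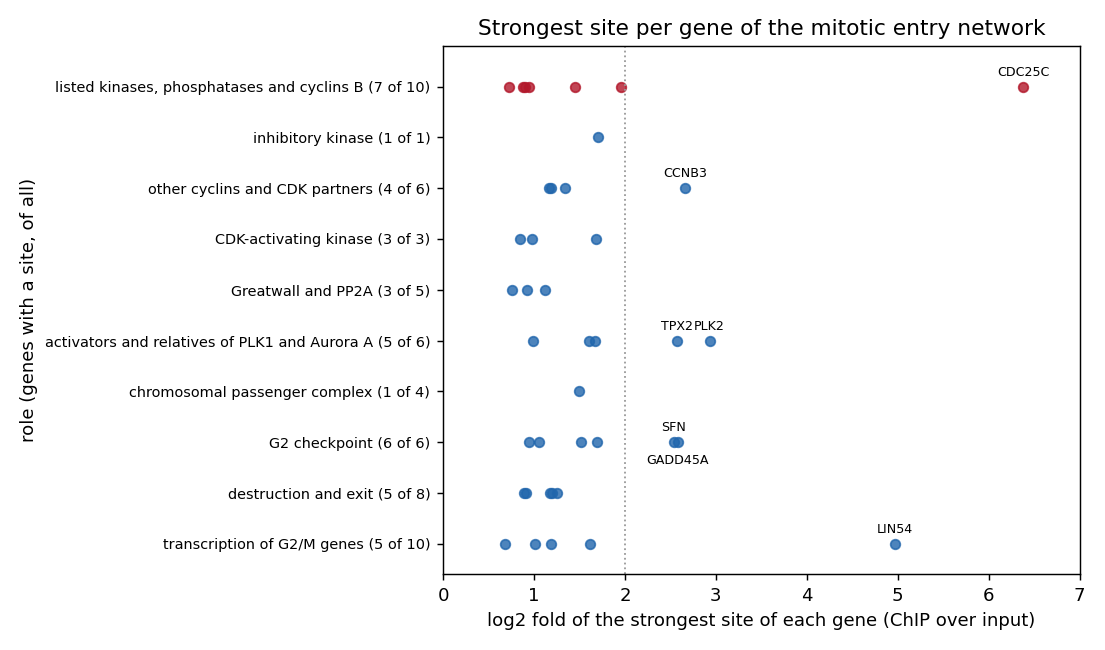
Log2 fold of the strongest site of each gene (horizontal axis) for the 10 mitotic entry genes (red) and 9 roles of the wider network (blue), with the number of genes that have a site in parentheses and a dotted line at a log2 fold of 2. CDC25C at 6.38 and LIN54 at 4.97 stand far to the right, and most other points lie under 2.

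By role, PKMYT1, the membrane-bound relative of WEE1 that also inhibits CDK1, had a deposited log2 fold of 1.70 near its end, at a site that also covers the start of PAQR4, from 438 bp before it to 61 bp inside. The kinase complex that activates CDK1, made of CDK7, CCNH and MNAT1, had a site over the start of each gene, with deposited log2 folds of 0.98, 0.85 and 1.68. Among other cyclins and partners of CDKs, 4 of 6 had a site. CCNA2, the cyclin of S and G2 phase, had 1.34 over its start, and CCNB3, a B-type cyclin of meiosis, 2.66 at 1579 bp inside the gene. CKS1B and CKS2, small subunits of CDK complexes, had none.

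Greatwall and its pathway, which restrain the phosphatase PP2A in mitosis, had sites at 3 of 5 genes with low folds, 0.92 at ENSA, 0.76 at ARPP19 and 1.12 at PPP2R2A. MASTL, the Greatwall kinase itself, and PPP2R2D had none. Activators and relatives of PLK1 and Aurora A had sites at 5 of 6 genes, with a start site at each of those 5. TPX2, which activates Aurora A on the spindle, had a site just before its start with a ChIP concentration of 8.68 and a deposited log2 fold of 2.57. BORA, the cofactor through which Aurora A activates PLK1, had 0.99, CEP192, a centrosomal scaffold of both kinases, 1.61, and PLK3 1.67. The BORA site ends 14 bp before the BORA start and crosses the start of MZT1. PLK2 had a site 910 bp past its end, with 2.93, and a weaker one at its start. The chromosomal passenger complex, here the partners of Aurora B and the related kinase AURKC, had a site at 1 gene of 4. This was BIRC5 (survivin) at 1.49, and INCENP, CDCA8 and AURKC had none.

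All 6 genes of the G2 checkpoint had a site, and for 3 of them, SFN, GADD45A and CLSPN, the strongest lay past the gene end. SFN, the 14-3-3 sigma protein that holds CDK1 complexes in the cytoplasm, had a log2 fold of 2.54 at 333 bp past its end in the authors' deposited table, GADD45A 2.58 at 1406 bp and CLSPN 1.69 at 874 bp. The CLSPN site is also paired with C1orf216 and lies inside that gene, with its nearer edge 128 bp from the start. CHEK1, the kinase that phosphorylates CDC25 proteins, had 1.52 at a site beginning 448 bp inside the gene, CHEK2 1.05 and CDKN1A (p21) 0.94. The CHEK1 site is also paired with STT3A, 374 bp past the end of that gene. The CHEK2 site also lies inside HSCB. Genes of cyclin destruction and mitotic exit had sites at 5 of 8, with log2 folds from 0.89 to 1.25, and CDC20, FZR1 and CDC14A had none.

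Among the factors that control transcription of G2 and M phase genes, 5 of 10 had a site, each at the start. The shares over all protein-coding genes were 44.2% with a site and 23.4% with a site at the start. LIN54, the subunit that recognises the CHR, had the largest fold of the network. Its site ended 7 bp before the start, with a ChIP concentration of 9.36 and an input of 4.39. The authors' deposited table gave 4.97 for the log2 fold and 2.27e-50 for the FDR. LIN54 lies on chromosome 4, where the median input of sites was low, 4.51, and the part of the input in the value was not tested. NFYC had 1.62, E2F4 1.19, LIN37 1.01 and NFYA 0.68. FOXM1, MYBL2, LIN9, LIN52 and NFYB had no site.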

How the data were processed

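Tools in the submitters' processing notes, which give neither order nor settings, are DiffBind, MACS2, Bowtie 1.1.1, Picard 1.92, cutadapt 1.8.1 and SAMtools, with the hg19 build, and the series' design text states that ChIP and input replicates were compared by DiffBind. The authors' deposited table holds mean log2 concentrations per group and their log2 fold, per the file headers. Its FDR, a q-value, is the authors' own and ends at 0.05. The scaling is not given in the sources used here. No label says that replicates came from separate cultures, so the FDR may measure technical spread. Library depth is unknown.

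Rows were read with Python 3.11.15 and pandas 2.3.3. Start positions count from 0 in the file and are given from 1. Distances run to the outermost gene start of the authors' annotation. Genes were matched by Entrez ID, then symbol, to 20056 protein-coding genes of RefSeq GRCh38.p14, used for names, order and promoter windows and never to convert positions. Offset and motif steps were tested on simulated data. No statistical test was run. All 10 genes and every site were named, and network genes at a log2 fold of at least 2, with others by role. Genes and lists were chosen with earlier results of these data known.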

Additional observations from a re-analysis of the deposited data

How the results depend on the processing

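The table holds group means, so no replicate could be left out, and depth limits cannot be given. No paired analysis was possible because the columns carry no value per replicate. Of 43 values recomputed under alternatives, 30 stayed within 1.5 times the count or within 0.01 of the log2 fold, and 13 counts moved. With an FDR under 0.001, a site was held by 3 of the 10 mitotic entry genes, 16 of the 49 network genes and 9 of the 23 G1 genes, and a start site by 2 and 9 of the first 2 lists. With a log2 fold of at least 1, a site was held by 3 mitotic entry genes, and a start site by 2 of these and 13 network genes. With a log2 fold of at least 2, a site was held by 1 mitotic entry gene, 6 network genes and 1 G1 gene, and a start site by 1 and 2 of the first 2 lists. Fewer sites pass each stricter threshold by construction. Windows of 3 kb and 5 kb and the shortest distance kept the 6 mitotic entry genes with a start site.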

Other observations

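The surroundings of the 7 genes with a site differed widely within 100 kb. CDC25C and CDK1 had no other site in that range, CDC25A had 1, AURKA 2, CDC25B 6 and AURKB 10. The AURKB site, at a log2 fold of 0.88, was weaker than each of those 10 in the authors' deposited table, which ran from 1.20 to 2.66. The nearest of them, 20323 bp away over the start of C17orf59, was also the strongest, with a ChIP concentration of 8.51. Others lay in TMEM107, a gene of the ciliary transition zone, at 2.29, and in PER1, a gene of the circadian clock, at 1.40. The site at 2.29 also covers the whole of SNORD118.

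Around CDC25B the site in the gene, at 1.96, was stronger than the 6 others within 100 kb, which ran from 0.82 to 1.45. A site 11631 bp away had 1.41 and another 15902 bp away 1.45. Both are paired with AP5S1, although 13138 and 8867 bp before its start. Near WEE1 the site before the start, at 1.45, was likewise stronger than the 3 others in range, which ran from 0.78 to 0.84 and include the distal WEE1 site.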
